A study of Mus musculus with 2 samples.

Results

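The CXC chemokine ligands described here are 10 genes, Cxcl1, Cxcl2, Cxcl3, Cxcl5, Cxcl9, Cxcl10, Cxcl12, Cxcl13, Cxcl14 and Cxcl16, of 33904 genes in the count tables. They were chosen by gene symbol alone. Each was followed in dorsal skin of a mouse model of atopic dermatitis (AD), in 1 Ctrl library and 1 AD library of single cells. All mice were female C57BL/6J animals, 7 weeks old, whose back hair was taken off with depilatory cream 24 h before the start. The Ctrl group received 100% ethanol alone, and the AD group received MC903 (calcipotriol, a vitamin D analogue) at 4.5 nmol per application on a patch of 2 cm by 2 cm. Both were treated daily for 10 consecutive days and skin was taken on day 10. How many mice entered a library is not given in the sources used here, so the ratios compare 2 libraries, and no test of the conditions was possible.

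Chemokines are small secreted proteins that draw leukocytes along a gradient, and the CXC family is defined by the spacing of its first cysteines. Cxcl1, Cxcl2, Cxcl3 and Cxcl5 carry the ELR motif and attract neutrophils through Cxcr2. Cxcl9 and Cxcl10 are induced by interferon and attract activated T cells through Cxcr3. Cxcl12 acts through Cxcr4 and is taken up by the scavenger receptor Ackr3, Cxcl13 attracts B cells and follicular helper T cells through Cxcr5, and Cxcl16 is a membrane-bound ligand of Cxcr6. Cxcl14 is made by resting epithelia.

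The genes lie in few places of the mouse genome (GRCm38, GENCODE M21). On chromosome 5, Cxcl5 (chr5:90759360-90761624), Cxcl3 (chr5:90786103-90789600), Cxcl1 (chr5:90891241-90893115) and Cxcl2 (chr5:90903871-90905938) stood within 146579 bases on the plus strand. Cxcl9 (chr5:92321347-92328079) and Cxcl10 (chr5:92346638-92348889) were neighbours on the minus strand, and Cxcl13 (chr5:95956951-95961068) lay beyond them on the plus strand. Cxcl12 (chr6:117168535-117181367, plus strand), Cxcl16 (chr11:70453983-70459984, minus strand) and Cxcl14 (chr13:56288643-56296551, minus strand) stood apart. Cxcl10 overlaps Art3, and Cxcl16 overlaps Zmynd15, each on the other strand.

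RefSeq promoters (GRCm38.p6) were found for 8 of the 10 genes and not for Cxcl5 and Cxcl16. The 250 bases before the start site are shown for Cxcl1, Cxcl2 and Cxcl3, the neighbours that share the same 11 letters, for the interferon-inducible Cxcl10 and for Cxcl13, with the largest dFB difference among ligands of 10 CPM or more. Capitals mark matches to the NF-kB consensus and, in Cxcl10, to the core of the interferon-stimulated response element, on either strand.
Cxcl1, chr5:90890995-90891244, plus strand: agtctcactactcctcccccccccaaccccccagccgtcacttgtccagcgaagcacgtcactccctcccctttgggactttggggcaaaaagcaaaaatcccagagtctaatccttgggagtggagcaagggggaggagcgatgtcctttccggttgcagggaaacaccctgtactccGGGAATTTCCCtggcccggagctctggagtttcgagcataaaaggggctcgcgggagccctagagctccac
Cxcl2, chr5:90903649-90903898, plus strand: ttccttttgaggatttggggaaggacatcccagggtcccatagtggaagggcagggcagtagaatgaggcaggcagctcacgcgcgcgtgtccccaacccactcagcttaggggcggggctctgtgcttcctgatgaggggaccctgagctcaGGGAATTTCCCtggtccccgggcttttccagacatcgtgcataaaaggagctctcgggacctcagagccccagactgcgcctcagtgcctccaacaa
Cxcl3, chr5:90785851-90786100, plus strand: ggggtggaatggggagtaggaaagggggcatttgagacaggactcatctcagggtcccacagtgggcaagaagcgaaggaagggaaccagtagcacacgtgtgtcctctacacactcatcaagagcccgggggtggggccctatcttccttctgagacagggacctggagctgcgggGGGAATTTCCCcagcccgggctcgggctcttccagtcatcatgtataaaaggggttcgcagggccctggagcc
Cxcl10, chr5:92348890-92349139, minus strand: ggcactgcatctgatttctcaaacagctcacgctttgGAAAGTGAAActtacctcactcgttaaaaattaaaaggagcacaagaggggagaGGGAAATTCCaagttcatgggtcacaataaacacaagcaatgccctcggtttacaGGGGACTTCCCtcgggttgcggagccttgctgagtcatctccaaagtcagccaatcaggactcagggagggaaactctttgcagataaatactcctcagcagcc
Cxcl13, chr5:95956689-95956938, plus strand: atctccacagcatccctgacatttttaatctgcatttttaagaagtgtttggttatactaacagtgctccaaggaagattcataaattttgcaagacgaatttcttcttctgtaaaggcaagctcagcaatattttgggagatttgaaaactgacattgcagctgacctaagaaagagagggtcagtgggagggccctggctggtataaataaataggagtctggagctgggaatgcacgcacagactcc
In Cxcl1, Cxcl2 and Cxcl3 the match was gggaatttccc, at bases -71 to -61, -97 to -87 and -73 to -63 from the start site. Cxcl10 held NF-kB matches at -159 to -150 and at -104 to -94, and the response element core (GAAANNGAAA) at -213 to -204. The NF-kB consensus was matched in 4 of the 8 promoters and in 8.49% of 32544 promoters of all genes (300 bases each). The response element core was matched in 2 of the 8, Cxcl10 and Cxcl14 (-172 to -163), and in 3.45% of all. The TATAAA box was matched in 3 (Cxcl3, Cxcl9 and Cxcl13) against 13.6% of all, and the gamma-activated site (TTCNNNGAA) in Cxcl14 alone against 8.33%. The NF-kB and response element matches did not overlap. A match describes letters only.

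Counts are unique molecular identifiers (UMIs), each a distinct captured transcript. A level is a gene's share of all UMIs of a cell class in 1 library, in counts per 1e6 UMIs (CPM). Ratios are log2 of AD over Ctrl after adding 1 CPM, and their 95% intervals are taken on the counts without that addition, so at low levels the ratio can lie nearer 0 than its interval. All intervals cover counting error only, since animals cannot be told from libraries. Levels are not compared between genes, and in 3′ counts a level carries no length correction.

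The Ctrl library held 11399 cells and 105195951 UMIs after filtering, and the AD library 8179 cells and 61645227 UMIs, with medians of 7813 and 6330 UMIs per cell. Cell classes were gated on marker genes that include none of the 10 ligands, and 95.7% of Ctrl cells and 90.4% of AD cells fell into a class. Dermal fibroblasts (dFBs) numbered 6052 in Ctrl and 4958 in AD, and all 8 dFB markers were present in both. Their summed level was 39048 CPM in Ctrl dFBs and 13183 CPM in AD dFBs. In clustering without the ligands, 10 of 11 dFB clusters drew at least 95% of their cells from 1 library, so condition and library cannot be told apart there. Keratinocyte (KC) classes differed in make-up: hair matrix cells numbered 357 in Ctrl and 0 in AD, and suprabasal KCs 407 and 5, so basal KCs (1153 and 367) were compared as well as all KCs. Basal KCs did not share clusters evenly either: the clusters named for them held 790 Ctrl and 7 AD cells, 521 and 0, 95 and 3, and 115 and 325, so condition and library cannot be told apart there as well. The libraries shared 35 barcodes. Barcodes gated as erythroid carried dFB marker RNA at 55.8% of the dFB level in Ctrl and 41.0% in AD, and ligand levels in them are not described further.

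Several ligands had most of their UMIs in 1 class. In Ctrl, dFBs held more than 50% of the UMIs of 6 ligands: Cxcl13 (98.5%), Cxcl5 (97.6%), Cxcl12 (89.3%), Cxcl1 (87.4%), Cxcl10 (73.4%) and Cxcl9 (59.4%). In AD they also held more than 50% for 6, with Cxcl14 (63.5%) in the place of Cxcl9 (12.8%). Of the UMIs of all genes, dFBs held 57028352 of 105195951 in Ctrl and 38184857 of 61645227 in AD, also more than 50%. The shares of Cxcl9 in Ctrl and of Cxcl14 and Cxcl10 (65.5%) in AD were near this and set those ligands little apart. These shares follow the number of dFBs sampled, so the level per class was read separately. By level, dFBs ranked first for 2 ligands in Ctrl and for 4 in AD (Cxcl1, Cxcl5, Cxcl12 and Cxcl13). Macrophages held 70.1% of Cxcl2 UMIs in Ctrl and 43.6% in AD, and KCs held 61.0% and 33.6% of Cxcl14 UMIs.

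**Figure D1:**
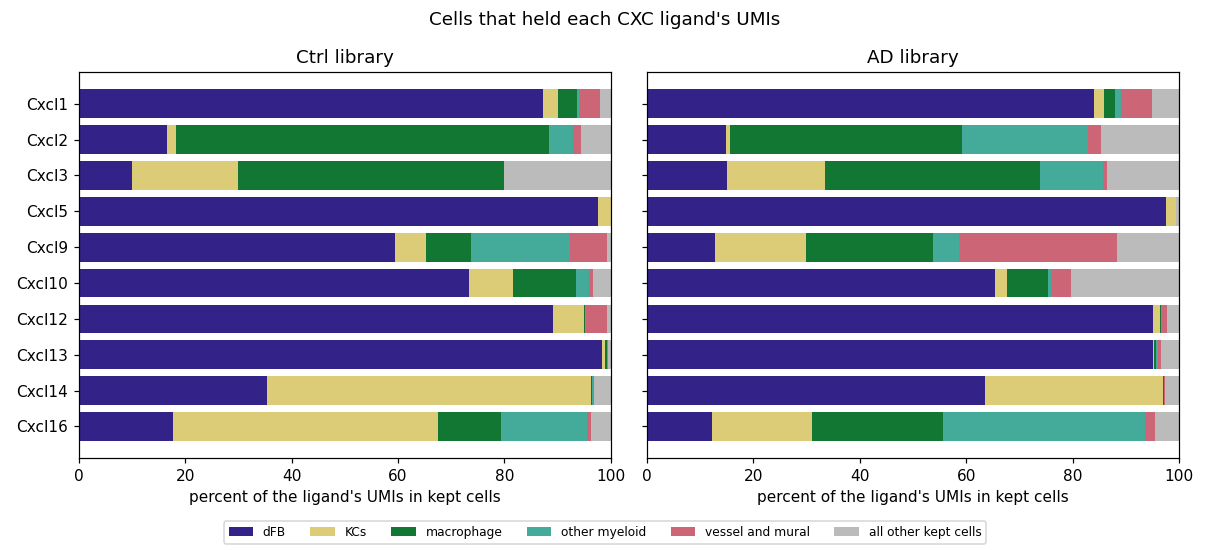
Share of each ligand's UMIs (x axis, percent of the UMIs in kept cells) by group of cells, for the Ctrl library (left) and the AD library (right). The dFB segment fills 98.5% of the Cxcl13 bar in Ctrl and 95.1% in AD, while macrophages fill 70.1% and 43.6% of the Cxcl2 bar; bars of Cxcl3 and Cxcl5 rest on few UMIs.

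**Figure D2:**
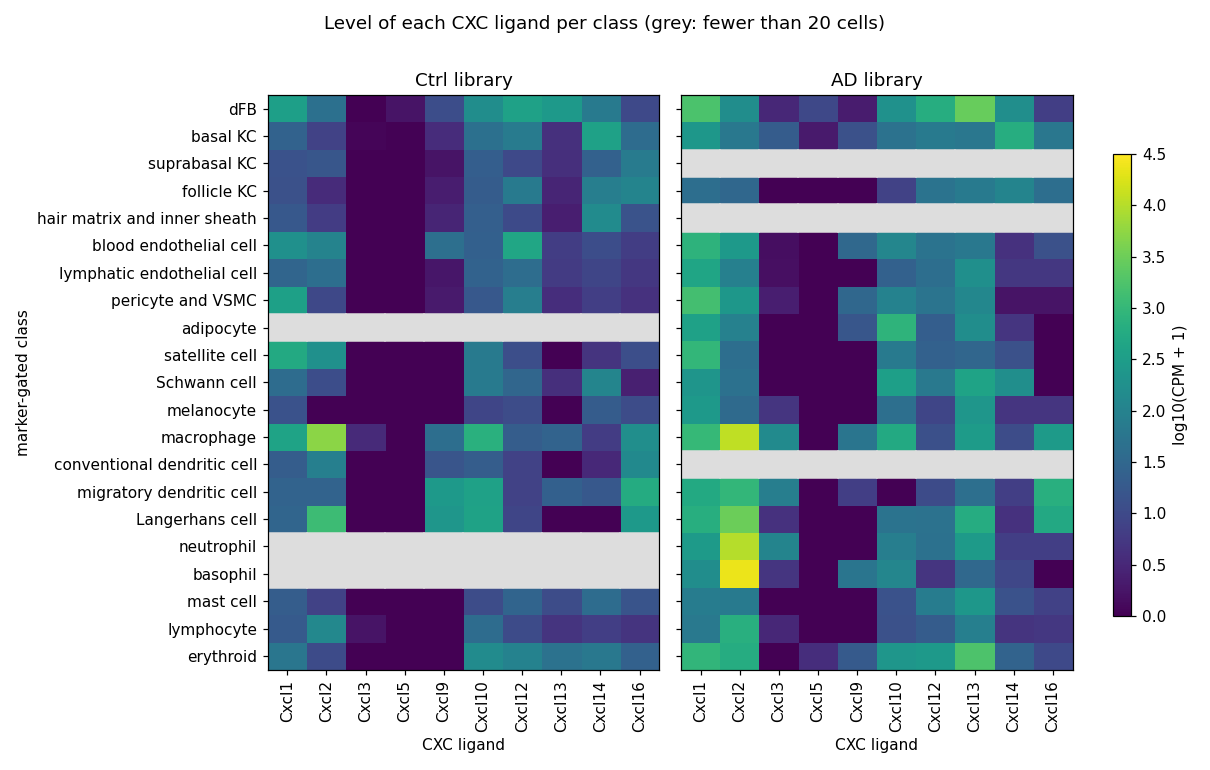
Level of each ligand, as log10(CPM + 1), in each marker-gated class (rows) of the Ctrl library (left) and the AD library (right); grey rows had fewer than 20 cells. Cxcl2 is brightest in AD basophils (23350 CPM) and macrophages (11677 CPM), and Cxcl13 in AD dFBs (2824 CPM).

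In dFBs, 7 of the 10 ligands reached 10 CPM in either library, 4 were at least 2-fold higher in AD (Cxcl1, Cxcl2, Cxcl13 and Cxcl14) and 1 was at least 2-fold lower (Cxcl9). Over all 9198 genes at that level, 6.83% were at least 2-fold higher and 13.3% at least 2-fold lower. The median log2 ratio was 1.24 over the ligands and -0.10 over all genes. Cxcl3, Cxcl5 and Cxcl16 stayed below 10 CPM in dFBs. Cxcl9 entered through Ctrl alone (10.7 CPM, against 1.23 CPM in AD). Without its richest cell it was at 8.37 CPM in Ctrl, so its count as lower is not read as a result.

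In all KCs, 9 ligands reached 10 CPM, 6 were at least 2-fold higher and none lower, against 6.24% and 11.1% of all genes. In basal KCs the count was 5 of 9 higher and none lower, against 4.47% and 10.4%. Macrophages had 4 of 9 higher and none lower, against 6.3% and 10.4%, but with clusters in place of the gate only 1, Cxcl13, was at least 2-fold higher. Blood endothelial cells had 4 of 8 higher and 2 lower, against 3.53% and 10.8%. Of the 2 lower, Cxcl14 entered through Ctrl alone (10.7 CPM, against 3.46 CPM in AD). Without its richest cell it was at 4.43 CPM in Ctrl, so the count of lower ligands there is not read as a result. Pericytes and vascular smooth muscle cells (VSMCs) had 5 of 6 higher and none lower, against 7.26% and 11.5%. Over all kept cells, 3 of 7 were higher (Cxcl1, Cxcl2 and Cxcl13) and none lower, against 6.2% and 12.2%. In each class the share of ligands that were higher was above that of all genes, but many entered through the AD library alone. In all KCs and in basal KCs, Cxcl2, Cxcl3, Cxcl9 and Cxcl13 were under 10 CPM in Ctrl. So were Cxcl2, Cxcl9 and Cxcl13 in pericytes and VSMCs, Cxcl3 in macrophages and Cxcl13 in blood endothelial cells. These entered only because they were high in AD. They were most of the higher ligands in KCs and in pericytes and VSMCs, so the shares there are not read as a result.

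**Figure D3:**
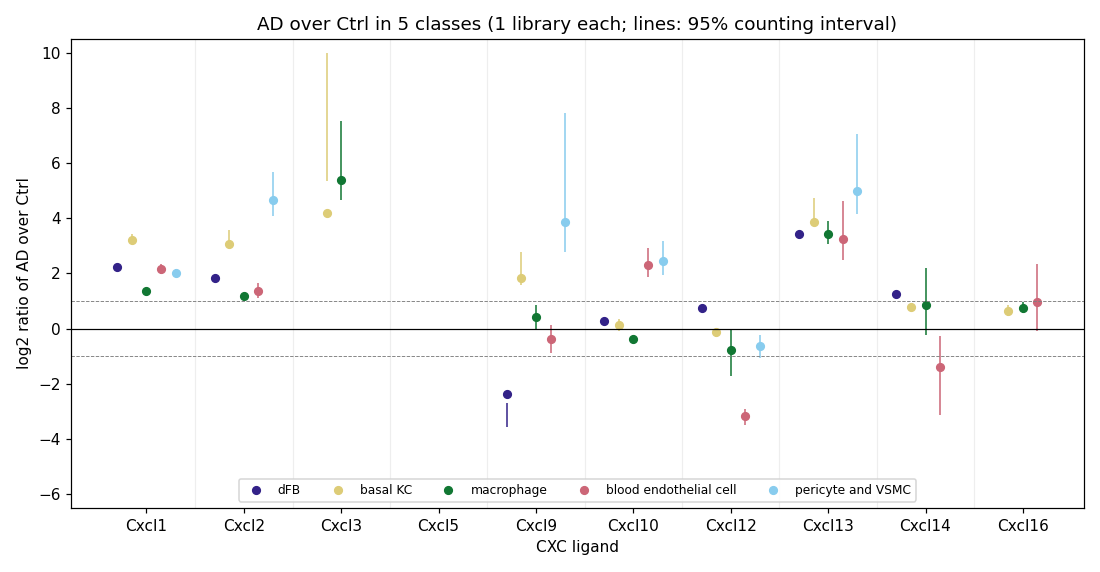
Log2 ratio of AD over Ctrl (y axis) for each ligand (x axis) in 5 classes, as points with 1 CPM added, and 95% counting intervals without it as lines, drawn to 10 at most; dashed lines mark 2-fold. Cxcl1, Cxcl2 and Cxcl13 lie above the upper dashed line in every class drawn, and Cxcl12 in blood endothelial cells lies at -3.17.

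Among the neutrophil attractants, Cxcl1 was found in the stroma and the vessel wall. In dFBs its level was 351 CPM in Ctrl (19990 UMIs, 35.2% of cells) and 1653 CPM in AD (63129 UMIs, 59.8% of cells), a log2 ratio of 2.23 (2.21 to 2.26). At 1000 UMIs drawn per cell, 14.6% of Ctrl dFBs and 38.6% of AD dFBs held a UMI. Lymphocytes, a class that should lack Cxcl1, held it in 1.77% and 3.11% of cells at that depth, and in 5.48% and 14.6% before drawing, at median depths of 2984 and 5234 UMIs. The UMIs were unevenly spread, with 218 of 6052 Ctrl dFBs and 300 of 4958 AD dFBs holding 50% of them.

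Pericytes and VSMCs had 354 CPM of Cxcl1 in the Ctrl library and 1427 CPM in the AD library, which was close to the dFB level in each library although their dFB marker level was 3.55% and 13.2% of that in dFBs. Blood endothelial cells stood at 179 and 807 CPM, lymphatic endothelial cells at 28.5 and 435 CPM, and basal KCs at 25.5 and 245 CPM. Macrophages had 409 CPM in Ctrl and 1046 CPM in AD, a log2 ratio of 1.35 that was 0.34 with clusters in place of the gate. Satellite cells, the muscle stem cells, were highest in Ctrl with 530 CPM (142 UMIs in 63 cells) and had 938 CPM in AD. Cxcl1 was thus higher in AD in every class with at least 20 cells in both libraries, by log2 0.82 in satellite cells to 4.50 in Langerhans cells. These classes include the erythroid barcodes and lymphocytes (18.0 and 64.4 CPM), which should lack Cxcl1. AD Langerhans cells carried dFB marker RNA at 11.3% of the dFB level. The part of stray dFB RNA in the Cxcl1 levels outside dFBs was not tested.

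Cxcl2 was mainly a myeloid transcript. Macrophages had 5195 CPM in Ctrl, with a UMI in 60.6% of 464 cells, and 11677 CPM in AD, with a UMI in 80.3% of 193 cells, a log2 ratio of 1.17 (1.13 to 1.20). When cells were grouped by clusters instead, the macrophage clusters held 407 and 90 cells and the log2 ratio was 0.47, a value under 2-fold. The highest level was in the 44 AD basophils, 23350 CPM (22760 to 23960), with a UMI in 81.8% of cells. The 45 AD neutrophils had 10143 CPM and a UMI in 97.8% of cells. Ctrl held 12 basophils and 5 neutrophils, too few for a ratio.

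The antigen-presenting cells of the epidermis carried Cxcl2 as well, with 1220 CPM in Ctrl and 3141 CPM in AD Langerhans cells. Migratory dendritic cells had 26.3 CPM in Ctrl (8 UMIs) and 972 CPM in AD (510 UMIs), in 11.9% and 52.4% of cells. In dFBs the level was lower, 45.1 and 163 CPM, with a UMI in 8.94% and 16.3% of cells. At 1000 UMIs per cell the dFB shares were 2.38% and 4.84%, beside 4.16% and 7.20% in lymphocytes, so the share of dFBs with Cxcl2 was at or below a background class. Satellite cells were the exception to the direction, with 183 CPM in Ctrl (49 UMIs, 2 cells holding 50% of them) and 7 UMIs in AD.

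Cxcl3 was nearly absent from Ctrl, with 10 UMIs in the whole library, and AD held 552 UMIs. Macrophages had 2.40 CPM in Ctrl (5 UMIs) and 143 CPM in AD (223 UMIs in 8.29% of cells), and 1 AD cell held 90 of those UMIs. AD neutrophils had 106 CPM (18 UMIs) and AD migratory dendritic cells 83.9 CPM (44 UMIs), while the 42 Ctrl migratory dendritic cells had 0 UMIs, which allows up to 9.87 CPM. In basal KCs the counts were 2 UMIs in Ctrl and 102 in AD, of which 74 came from 1 cell. With clusters in place of the gate, the AD macrophage level of Cxcl3 was 6.14 CPM.

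Cxcl5 was a dFB transcript of few cells. Ctrl dFBs held 40 UMIs (0.70 CPM), 30 of them in 1 cell, and AD dFBs held 324 UMIs (8.49 CPM, 7.59 to 9.46) in 0.36% of cells. In AD, 2 cells held 50% of these UMIs. No other class of 20 cells or more had over 6 UMIs in either library.

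Of the Cxcr3 ligands, Cxcl9 rested on few cells. Ctrl dFBs held 608 UMIs (10.7 CPM) and AD dFBs 47 UMIs (1.23 CPM), a log2 ratio of -2.39, but 3 Ctrl cells held 50% of the Ctrl UMIs and 1 cell held 131. Ctrl migratory dendritic cells had 81 UMIs, 77 in 1 cell, and Ctrl Langerhans cells 90 UMIs in 4.69% of 64 cells. AD Langerhans cells had 0 of 77 cells with a UMI, which allows a level of up to 5.12 CPM. In macrophages there were 87 UMIs in each library, and 58 in Ctrl and 81 in AD came from 1 cell. The level of 55.8 CPM in AD basophils also came from 1 cell with 14 UMIs. The AD pericytes and VSMCs had 43 UMIs in 3.03% of cells, beside 2 UMIs in Ctrl.

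Cxcl10 was spread over more cells, and its level in dFBs was similar in the libraries. Ctrl dFBs had 160 CPM (24.7% of cells) and AD dFBs 191 CPM (23.1%), a log2 ratio of 0.26 (0.22 to 0.31). At 1000 UMIs per cell the shares were 8.53% and 9.60%, beside 2.77% and 1.36% in lymphocytes. Macrophages had 711 CPM in Ctrl (44.4% of cells) and 543 CPM in AD (29.0%), and 1 AD cell held 383 of 849 UMIs. Without the richest cell of each library the macrophage log2 ratio was -1.15 in place of -0.39. Adipocytes, found in number only in AD (97 cells against 1), had 829 CPM (788 to 872) with a UMI in 63.9% of cells at a median depth of 18895 UMIs.

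Among the vascular classes, Cxcl10 was higher in the AD library in blood endothelial cells and in pericytes and VSMCs. Blood endothelial cells had 22.7 CPM in Ctrl and 117 CPM in AD, a log2 ratio of 2.32 (1.86 to 2.92). Pericytes and VSMCs had 16.7 and 96.1 CPM, with 90 of 136 AD UMIs in 1 cell, and a log2 ratio of 2.46 that was 1.25 without the richest cells. Lymphatic endothelial cells had 25.0 CPM in Ctrl and 23.8 CPM in AD, a log2 ratio of -0.07 (-0.78 to 0.65). Langerhans cells had 387 CPM in Ctrl, 112 of 151 UMIs in 1 cell, and 51.2 CPM in AD. Migratory dendritic cells had 115 UMIs in Ctrl, 93 of them in 1 cell, and 0 UMIs in 42 AD cells, which allows up to 5.72 CPM.

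The genes listed as interferon-inducible, among them the antiviral Ifit genes, are given beside these ligands. In dFBs, 6 of 10 were at least 2-fold lower in AD and none higher, with a median log2 ratio of -1.22. Over all genes in dFBs, 13.3% were at least 2-fold lower and 6.83% higher, and the median was -0.10. Ifit3 went from 33.6 to 5.74 CPM and Isg15 from 41.4 to 10.5 CPM, while Irf1 had 353 and 424 CPM. In macrophages 4 of 10 were lower and 1 higher, against 10.4% and 6.3% of all genes. In basal KCs none was lower and 3 of the 5 at 10 CPM were higher, against 10.4% and 4.47%. In blood endothelial cells 2 of 9 were higher and none lower, against 3.53% and 10.8%. The list was chosen with earlier results of these data known, and these counts test nothing.

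Cxcl12 was higher in AD in dFBs and lower in blood endothelial cells. In dFBs it stood at 372 CPM in Ctrl (21223 UMIs, 54.3% of cells) and 628 CPM in AD (23995 UMIs, 67.7% of cells), a log2 ratio of 0.75 (0.73 to 0.78) that stayed under 2-fold. In blood endothelial cells the Ctrl level was 467 CPM (434 to 502) and the AD level 50.9 CPM (41.6 to 61.7), with a log2 ratio of -3.17 (-3.51 to -2.90). At 1000 UMIs per cell, 20.8% of Ctrl and 6.09% of AD blood endothelial cells held a UMI. Their dFB marker level was 1.67% of the dFB level in Ctrl and 3.57% in AD, and their Cxcl12 was 125% and 8.10% of the dFB level. In Ctrl, 9 of 227 blood endothelial cells held 50% of the UMIs. The leading genes of the class began with Flt1 and Plvap in Ctrl and with Sele and Selp in AD. Those of Ctrl also included Prox1, a leading gene of the lymphatic endothelial class, and those of AD did not. The cluster named for it held 117 Ctrl and 127 AD cells, against 227 and 201 gated. The lymphatic cluster held 360 and 368 cells, against 210 and 242 gated. How many lymphatic cells entered the blood endothelial class was not tested. The blood endothelial ratio was not repeated with clusters or the stricter gate.

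The other vascular classes differed less in Cxcl12. Lymphatic endothelial cells had 38.8 and 41.0 CPM, and pericytes and VSMCs 81.7 and 52.3 CPM. Basal KCs had 74.8 CPM in Ctrl and 68.1 CPM in AD. In Langerhans cells 3 UMIs in Ctrl stood against 29 in AD, where dFB markers reached 11.3% of the dFB level and Cxcl12 7.87%.

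Cxcl13 had the largest difference in dFBs among the ligands at 10 CPM or more. Its level was 261 CPM in Ctrl (14875 UMIs, 22.1% of 6052 cells) and 2824 CPM in AD (107815 UMIs, 57.8% of 4958 cells), a 10.8-fold higher level and a log2 ratio of 3.43 (3.41 to 3.46). At 1000 UMIs per cell the shares were 10.5% and 45.5%, beside 0.63% and 3.89% in lymphocytes. In AD, 450 dFBs held 50% of the UMIs and the richest cell had 403. Cxcl13 was higher in AD in all 15 classes with at least 20 cells in both libraries, erythroid barcodes included. It was at least 2-fold higher in 14 of them, the exception being migratory dendritic cells (23.0 and 43.8 CPM).

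Outside dFBs, Cxcl13 is given beside the dFB marker RNA found in the same barcodes. Lymphatic endothelial cells had 5.17 CPM in Ctrl and 170 CPM in AD, and pericytes and VSMCs 2.88 and 122 CPM. Basal KCs had 3.13 and 59.3 CPM, and blood endothelial cells 5.66 and 62.3 CPM. In these 4 classes the AD level was 2.10% to 6.02% of that in dFBs, while dFB marker RNA was 2.40% to 13.2% of the dFB level. Langerhans cells had 0 UMIs in Ctrl and 612 CPM in AD, at least 79.6-fold higher against a floor of 3 counts, and their AD Cxcl13 was 21.7% of the dFB level beside 11.3% for dFB markers. In AD macrophages 1 cell held 350 of 451 UMIs. The part of stray dFB RNA in these levels was not tested.

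Cxcl14 was an epidermal and dFB transcript. Basal KCs had 375 CPM in Ctrl (66.3% of cells) and 641 CPM in AD (65.4%), a log2 ratio of 0.77 (0.71 to 0.83). At 1000 UMIs per cell the shares were 26.6% and 37.0%. Hair matrix cells of the Ctrl library had 146 CPM and suprabasal KCs 24.3 CPM, and these classes were nearly missing from AD. Over all KCs the log2 ratio was 1.41, larger than in basal KCs alone, beside this difference in make-up. Schwann cells had 110 and 164 CPM.

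In dFBs the Cxcl14 level was 70.6 CPM in Ctrl and 168 CPM in AD, a log2 ratio of 1.24 (1.20 to 1.31), but the share of cells with a UMI was 22.9% and 20.1%. The UMIs were held by fewer cells in AD, where 81 dFBs carried 50% of them against 218 in Ctrl. At 1000 UMIs per cell the shares were 5.84% and 7.61%.

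Cxcl16 belonged to antigen-presenting cells and the epidermis. Migratory dendritic cells had 592 CPM in Ctrl (66.7% of 42 cells) and 679 CPM in AD (71.4% of 42 cells), a log2 ratio of 0.20 (-0.07 to 0.46). Langerhans cells had 269 and 520 CPM, with a log2 ratio of 0.95 (0.63 to 1.28), and macrophages 165 and 280 CPM, with 0.76 (0.55 to 0.97). With clusters in place of the gate the macrophage log2 ratio was -0.38. Conventional dendritic cells of the Ctrl library (164 cells, against 6 in AD) had 134 CPM. The cluster named for Langerhans cells held 475 Ctrl and 238 AD cells, against 64 and 77 gated. Langerhans ratios of the ligands were not repeated with clusters. Follicle KCs had 106 CPM in Ctrl and 40.6 CPM in AD (12 UMIs), and basal KCs 37.9 and 60.0 CPM. Lymphocytes, which carry its receptor, had a Cxcl16 UMI in 1.25% and 1.73% of cells. Over all kept cells the level was 27.4 and 29.0 CPM.

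Fibroblasts of the skin fall into subsets with different places and roles, and the dFBs were divided by short lists of subset genes. These lists are not the study's own subset definitions, with which they share Fmo2 and Prdm1. A dFB was put in a subset if it held UMIs of that list alone: Dpp4 for the Dpp4 subset, Fmo2, F3 or Gdf10 for the Areg subset, Grem1 or Cyp26b1 for the Grem1 subset, Crabp1, Dkk2 or Prdm1 for the peri-follicular subset, and Wif1, Hhip or Rspo3 for the follicle mesenchyme. The Dpp4 subset held 484 Ctrl and 301 AD cells, the Areg subset 106 and 917, and the Grem1 subset 435 and 309. The follicle mesenchyme held 43 and 25 cells and the peri-follicular subset 25 and 33, and an Lrrc15 subset (Lrrc15 or Col11a1) 73 and 1. Cells with UMIs of several lists (4690 and 3037) were left out here. They were included when each dFB went to the list with most UMIs, which gave 1497 and 591, 362 and 2005, and 1913 and 1322 cells for the first 3 subsets. Dpp4 itself, whose protein trims the ends of several CXC ligands, had 282 CPM in Ctrl dFBs against 96.6 CPM in AD, so fewer AD cells could pass its gate. Genes outside the gate lists also differed. In the Grem1 subset Lpl had 154 CPM in Ctrl and 1233 CPM in AD, Pi16 1836 and 53.0 CPM, and Trps1 193 and 79.2 CPM. Apoe (778 and 982 CPM) and Lrig1 (61.0 and 73.0 CPM) were closer. Pi16 in the Dpp4 subset was 1662 and 145 CPM. Whether a subset name covers like cells in both libraries was not tested.

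Cxcl13 was highest in the Dpp4 subset in both libraries. Its level there was 771 CPM in Ctrl (57.9% of cells) and 6837 CPM in AD (90.7% of cells), a log2 ratio of 3.15 (3.09 to 3.20). The Areg subset had 176 and 2498 CPM, with a log2 ratio of 3.82 (3.58 to 4.08). The Grem1 subset had 5.0 CPM in Ctrl (14 UMIs) and 1040 CPM in AD (2494 UMIs), a log2 ratio of 7.44 (6.95 to 8.57). This was the largest ratio of the subsets under this gate, but with the list of most UMIs it was 5.17, beside 5.23 in the follicle mesenchyme. The order of Dpp4, Areg and Grem1 was the same in the libraries, and their intervals did not overlap. Cxcl13 was also higher in AD in the follicle mesenchyme (72.6 and 2968 CPM) and the peri-follicular subset (17.6 and 1464 CPM).

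Cxcl1 was ordered in the same way in Ctrl, with 868 CPM in the Dpp4 subset, 439 CPM in the Areg subset and 62.8 CPM in the Grem1 subset. In AD the Areg subset (2523 CPM) stood above the Dpp4 subset (2217 CPM), and the Grem1 subset had 788 CPM. The log2 ratios were 1.35, 2.52 and 3.63 in turn, so the subset with the lowest Ctrl level had the largest ratio. Cxcl2 had a log2 ratio of 3.34 in the Areg subset (17.0 and 181 CPM), 2.23 in the Grem1 subset and 0.66 in the Dpp4 subset. Under the list of most UMIs these were 3.01, 2.38 and 0.09 (-0.07 to 0.26), so the Dpp4 difference was not kept.

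Cxcl12 differed in direction between subsets. The Areg subset had 1218 CPM in Ctrl and 567 CPM in AD, a log2 ratio of -1.10 (-1.21 to -1.0), and the Grem1 subset had 211 and 895 CPM, a log2 ratio of 2.08 (1.96 to 2.22). The Dpp4 subset had 388 and 328 CPM. Under the list of most UMIs the ratios were -0.53, 1.96 and -0.03, which kept the directions but put the Areg difference under 2-fold. The follicle mesenchyme had 1634 and 815 CPM and the peri-follicular subset 448 and 50.8 CPM (6 UMIs). With 1 library per condition, the difference between subsets was not tested beyond counting error.

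Cxcl14 was concentrated in the Areg subset, with 408 CPM in Ctrl and 383 CPM in AD and a log2 ratio of -0.09 (-0.26 to 0.08). In the Dpp4 subset it was 35.0 CPM in Ctrl and 5.21 CPM in AD (10 UMIs), a log2 ratio of -2.54, and in the Grem1 subset 56.0 and 25.9 CPM. None of these 3 subsets had the higher AD level seen over all dFBs. The left-out cells with UMIs of several lists did, with 67.4 CPM in Ctrl and 157 CPM in AD, a log2 ratio of 1.21 (1.15 to 1.29). Under the list of most UMIs the Areg subset had 301 and 354 CPM and its cells numbered 362 among 6052 in Ctrl and 2005 among 4958 in AD. The Grem1 log2 ratio was then 0.04 in place of -1.09. How much of the dFB difference in Cxcl14 goes with the number of Areg cells was not tested.

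Cxcl10 was higher in the Dpp4 subset (430 CPM in Ctrl and 357 CPM in AD) than in the Areg subset (69.1 and 187 CPM) and the Grem1 subset (39.6 and 170 CPM). The log2 ratios of -0.27, 1.42 and 2.07 became 0.14, 0.65 and 0.32 under the list of most UMIs, so in none of these 3 subsets did a 2-fold difference hold under both gates. In the follicle mesenchyme it did, with 39.3 CPM in Ctrl (13 UMIs) and 212 CPM in AD (26 UMIs), a log2 ratio of 2.40 (1.42 to 3.51), and 2.51 under the list of most UMIs. In the peri-follicular subset 62 UMIs in Ctrl and 70 in AD came to 50% or more from 1 cell each.

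**Figure D4:**
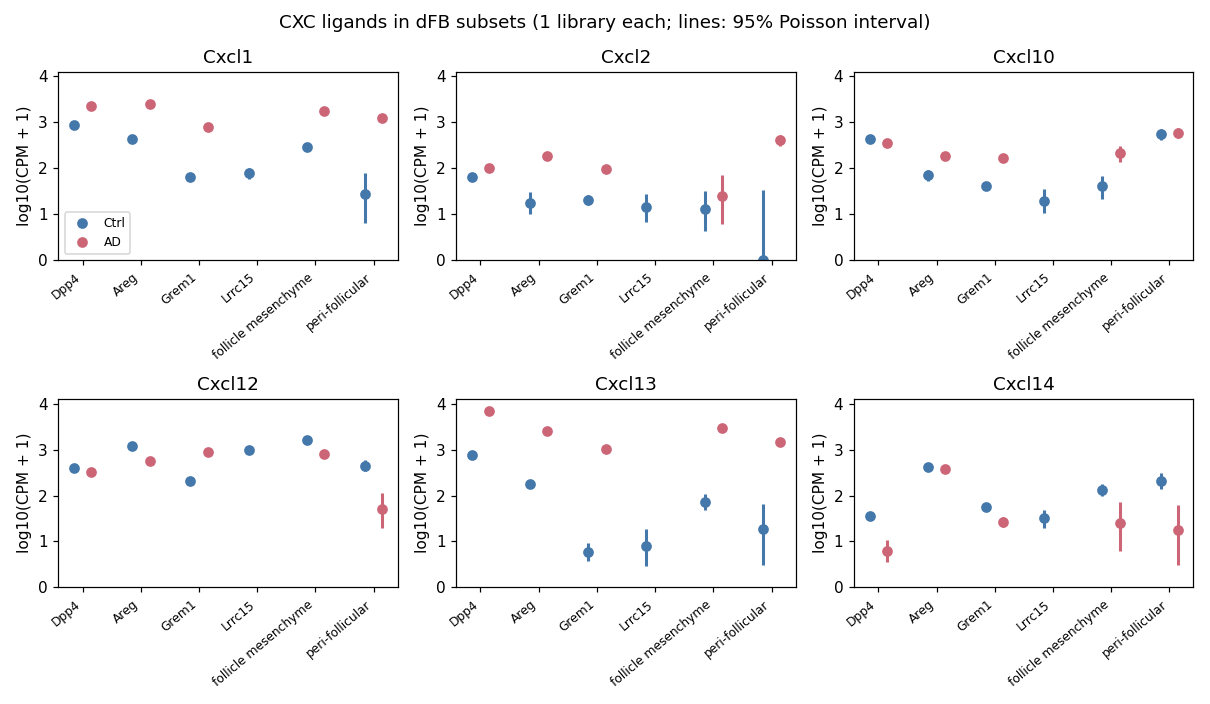
Level (y axis, log10 of CPM + 1) of 6 ligands in dFB subsets with at least 20 cells (x axis), for the Ctrl and AD libraries; points are levels and lines 95% Poisson intervals. Cxcl13 is highest in the Dpp4 subset (771 CPM in Ctrl and 6837 CPM in AD), and Cxcl12 is lower in AD in the Areg subset (1218 and 567 CPM) and higher in the Grem1 subset (211 and 895 CPM).

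Within single dFBs, ligands were counted together after drawing 1000 UMIs per cell, which left 5955 Ctrl and 4812 AD cells. In AD, 152 of 233 cells with Cxcl2 also had Cxcl1 (65.2%), against 38.6% of all AD dFBs. In Ctrl the figures were 43.0% and 14.6%. In AD, 68.0% of cells with Cxcl10 had Cxcl13, against 45.5% of all, and 25.4% of cells with Cxcl14 had it. Cxcl13 and Cxcl14 were thus found together less often than the product of their shares gives (93 cells against 166), and Cxcl10 and Cxcl13 more often (314 against 210). These are descriptions of cells of 1 library each.

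Genes inducible through NF-kB or IL-17 were listed for comparison, among them the inhibitor Nfkbia, the cytokine Il6 and the acute-phase gene Saa3. In dFBs 8 of 10 reached 10 CPM, 5 were at least 2-fold higher in AD and none lower, with a median log2 ratio of 1.43. Over all genes in dFBs, 6.83% were at least 2-fold higher and 13.3% lower, and the median was -0.10. Il6 had 197 and 733 CPM, Saa3 1.65 and 297 CPM, Lcn2 1.65 and 30.5 CPM, and Zc3h12a, an RNase that limits cytokine transcripts, 23.0 and 81.6 CPM. Nfkbiz (427 and 615 CPM) and Tnfaip3 (323 and 587 CPM) stayed under 2-fold. In pericytes and VSMCs 7 of 8 were higher, in macrophages 7 of 9, in blood endothelial cells 6 of 8 and in basal KCs 5 of 7. None was lower in these classes. Over all genes, 7.26%, 6.3%, 3.53% and 4.47% were higher in these classes in turn. The list was chosen with earlier results of these data known, so these counts describe and test nothing. In all KCs Ccl20 was lower (25.0 and 1.94 CPM). Other CXC ligands were scarce: Cxcl11, Cxcl15, Cxcl17 and Ppbp were under 10 CPM in each of these classes, and macrophage Pf4 was 2009 CPM in the Ctrl library and 1330 CPM in the AD library. Among the enzymes that cut CXC ligands, Adam10 and Adam17 had log2 ratios of -0.45 and -0.26 in dFBs.

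Cxcr2 was highest in AD neutrophils, at 1011 CPM with a UMI in 93.3% of 45 cells, followed by AD basophils at 108 CPM. Cxcr1 had 0 UMIs in Ctrl and 1 in AD. Cxcr5, the receptor of Cxcl13, had 13 and 31 UMIs over all kept cells, and only 9 and 3 cells were gated as B cells. AD migratory dendritic cells held 9 of the Cxcr5 UMIs, in 14.3% of 42 cells. Cxcr3 in lymphocytes was 24.6 CPM in Ctrl (7.22% of cells) and 11 CPM in AD (4.23%). Cxcr6 in lymphocytes was 248 CPM (36.2%) and 88.9 CPM (26.3%). Cxcr4 was higher in AD in lymphocytes (84.5 and 178 CPM) and macrophages (107 and 344 CPM), and AD basophils had 562 CPM. Ackr3 had 273 and 325 CPM in dFBs, 166 and 447 CPM in lymphatic endothelial cells and 76.1 and 165 CPM in blood endothelial cells. Ackr1, a decoy receptor of venules, had 23.3 and 206 CPM in blood endothelial cells and 50.9 and 92.5 CPM in dFBs.

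The pattern of each ligand over classes was compared with that of 9033 genes, not of all genes listed. Pearson's r of log2 levels was taken over 36 profiles of class and library. The value added to the CPM before this log was larger than the 1 CPM added for the ratios. The most alike genes were Igfbp3 for Cxcl13 (r = 0.91), Ifi30 for Cxcl16 (0.90), Ccl6 for Cxcl2 (0.88), Tenm2 for Cxcl14 (0.85) and Cebpd for Cxcl1 (0.81). For Cxcl5 it was Il31ra (0.80), for Cxcl12 Plpp3 (0.78), for Cxcl3 Gm19951 (0.76), for Cxcl10 Mmp19 (0.74) and for Cxcl9 H2-M2 (0.66). Among the ligands, Cxcl1 and Cxcl13 were most alike (0.68), then Cxcl5 and Cxcl12 (0.58), Cxcl2 and Cxcl3 (0.58) and Cxcl9 and Cxcl10 (0.57), and Cxcl2 and Cxcl14 least (-0.46). The profiles share libraries and depth, so these values describe and test nothing.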

How the data were processed

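Single-cell RNA of dorsal skin was measured by 10x Genomics droplets in 1 Ctrl and 1 AD library. The authors deposited filtered matrices of whole-number UMI counts per gene and cell, not normalized, aligned to mm10. Sources differ on the software; the submitters' processing notes name Cell Ranger 3.1.0 and Seurat 5.0. Barcodes were kept if they had 200 to 6000 detected genes and mitochondrial UMIs of 10% or less, leaving 105195951 and 61645227 UMIs. Each cell was gated to the marker list with the highest mean of scaled markers (score of at least 0.2, margin of at least 0.05); Pdgfra placed unassigned cells among dFBs, and T cell and innate lymphoid lists were merged. This rule was set after marker tables and member values had been seen. The members and lists were chosen with earlier results of these data known.

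Counts were summed per class and library and given as CPM with exact Poisson intervals, shares with exact Clopper-Pearson intervals and ratios with exact conditional intervals (95%). Ratios were computed for genes of at least 10 CPM in either library and classes of at least 20 cells, with 1 CPM added. No count model could be fitted with 1 library per condition. Shares were repeated after drawing 1000 UMIs per cell, which left out 368 Ctrl and 499 AD cells. The summing and ratio steps were tested on simulated data. All 10 members were named, with listed pathway genes and the 3 genes most alike in profile per member, of which the first is given. A doublet caller (Scrublet) marked 395 Ctrl cells and 0 AD cells, so it was not used as a filter, and the 5% of cells with the highest score were left out as an alternative. Other alternatives were clusters, a stricter gate, no cell filter, deeper cells, equal weight per cell, other added values and leaving out richest cells. Fewer cells of a subset and less RNA per cell cannot be told apart in these sums. Python 3.11.15, scanpy 1.11.5 and scipy 1.17.1 were used, with promoters from RefSeq (GRCm38.p6) and positions from GENCODE M21. Values of 1 listed gene are not reported here.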

Additional observations from a re-analysis of the deposited data

Results flagged for a closer look

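Cxcl9 differed in opposite directions between classes, with a log2 ratio of AD over Ctrl of 1.83 in basal KCs and -2.39 in dFBs. In basal KCs 1 AD cell held 41 of 63 UMIs, and the ratio was 0.92 without the richest cell of each library. Cxcl10 stood at 2.46 in pericytes and VSMCs and at -2.90 in Langerhans cells, and without the richest cells at 1.25 and -1.60. Cxcl12 stood at 2.54 in Langerhans cells (3 and 29 UMIs) and at -3.17 in blood endothelial cells. Without the richest cells these were 2.28 and -3.09. Each pair was picked as the highest and the lowest ratio among classes with enough cells holding a UMI. It was kept only if 1 was at least 2-fold higher and 1 at least 2-fold lower. That the counting intervals of each pair lay on opposite sides of 0 follows largely from this choice. The intervals do not cover the spread between cells, and the difference between the classes was not tested over animals.

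The AD cells that fell into no class, 786 in number, carried several ligands at levels above those of the 490 ungated Ctrl cells. Cxcl2 stood at 1158 CPM against 143 CPM, Cxcl13 at 797.5 against 10.2 CPM, Cxcl1 at 760.1 against 56.1 CPM, Cxcl10 at 169.2 against 48.6 CPM and Cxcl12 at 109.5 against 24.3 CPM. Cxcl3 had 67 UMIs in AD and 0 in Ctrl. Cxcl14 (58.0 in AD against 65.1 CPM) and Cxcl16 (21.2 against 21.9 CPM) were not higher. Their dFB marker RNA was 22.1% of the dFB level in AD and 7.96% in Ctrl. Of the 3436 Cxcl2 UMIs, 1595 lay in 10 cells whose best list was that of neutrophils and 1042 in 169 cells whose best list was that of mononuclear phagocytes. The part of mixed droplets in these levels was not tested.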

How the results depend on the processing

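No paired analysis was possible because each condition had 1 library. The doublet calls of Scrublet could not be used as a filter, since no AD cell was called. Under the alternatives tried, Cxcl13 in dFBs kept a log2 ratio of 3.39 to 3.73, Cxcl1 of 2.15 to 2.44, Cxcl2 of 1.65 to 2.00, Cxcl14 of 1.02 to 1.32 and Cxcl12 of 0.62 to 0.81. Cxcl9 in dFBs ranged from -3.10 (1000 UMIs per cell) to -0.88 (10 CPM added). In subsets, 4 log2 ratios changed sign: Cxcl16 in Areg dFBs was 0.084 at 1000 UMIs per cell in place of -1.88, and with the list of most UMIs Cxcl14 was 0.037 in Grem1 dFBs in place of -1.09 and 0.24 in Areg dFBs in place of -0.09, and Cxcl10 was 0.14 in Dpp4 dFBs in place of -0.27. In classes, ratios under 2-fold changed sign for Cxcl16 in macrophages (clusters, -0.38), KCs (1000 UMIs per cell, -0.022) and all kept cells (1000 UMIs per cell, -0.38, and mean over cells, -0.35), and, without the richest cells, for Cxcl10 in KCs (-0.24) and Cxcl9 in macrophages (-1.61). With clusters in place of the gate, 1 member was at least 2-fold higher in macrophages in place of 4, and dFBs ranked first for 2 members in AD in place of 4. With at least 100 CPM required, fewer genes entered and 2 members were at least 2-fold higher in KCs in place of 6. Of the 30 most alike genes, 18 were kept with 50 CPM added, 6 with the Ctrl library alone and 1 with the AD library alone. In macrophages the clusters gave log2 ratios of 0.34 for Cxcl1 and 0.47 for Cxcl2. The causes were not tested. Few cells limit what Cxcl3, Cxcl5 and Cxcl9 show, and animals per library are not known.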
